A study of Homo sapiens with 42 samples.

Results

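The 9 genes of serine synthesis and folate one-carbon metabolism, PHGDH, PSAT1, PSPH, SHMT2, SHMT1, MTHFD2, MTHFD1L, ALDH1L2 and MTHFD1, were followed in acute myeloid leukaemia (AML) cell lines exposed to decitabine. The members were the rows of the deposited expression table that carry these 9 names, out of 60240 genes in the table, and all 9 passed the filter on low values that left 22168 genes to test. Decitabine is a cytidine analogue that is built into DNA and traps DNA methyltransferases. The groups were decitabine-treated and DMSO-treated cells of MOLM-14, SKM-1, OCI-AML3, MOLM-13 and KG-1, with 3 libraries in each of the 10 groups. Every line was labelled as wild type, the drug was given as 3 daily doses of 100 nM, and RNA was taken at 72 hours. DMSO is the solvent. MOLM-13 and MOLM-14 are sister lines of the same patient, and MOLM-14 is named in the sample labels but not in the design text of the series. Each line is 1 established culture, so that a line stands for itself and not for a kind of leukaemia.

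Cells make serine from the glycolytic intermediate 3-phosphoglycerate: PHGDH oxidises it, PSAT1 adds the amino group from glutamate, and PSPH removes the phosphate. Serine hydroxymethyltransferases, SHMT2 in mitochondria and SHMT1 in the cytosol, then split serine into glycine and a one-carbon unit carried on tetrahydrofolate. In mitochondria MTHFD2 and MTHFD1L turn that unit into formate, which the cytosolic enzyme MTHFD1 loads back onto folate for purine, thymidylate and methionine synthesis, while ALDH1L2 burns it to carbon dioxide. The transcription factor ATF4 is known to drive several of these genes when amino acids are short, and leukaemia cells are known for high mitochondrial folate activity.

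Values are the authors' normalised counts, compared here as log2(normalised count + 1). A difference is decitabine minus DMSO, from 1 limma fit over all 30 libraries, and a gene is called lower or higher where its Benjamini-Hochberg (BH) adjusted p over all tested genes is below 0.05. The panel mean is the mean of the 5 lines' differences. Libraries differed in depth: MOLM-13 and SKM-1 held an estimated 42.9 M to 75 M reads in genes (M, mega), the other 3 lines held 1.97 M to 31.2 M, and the shallow end of that range is replicate 2 of both treatments in these lines (6 libraries). The pan-leukocyte gene PTPRC (3643 to 12169 normalised counts) and the myeloid genes CD33 (569.8 to 2346) and SPI1 (666 to 2182) were present in every library. Other markers of myeloid leukaemia varied: CD34 was at 1.905 to 31071, MPO at 13.74 to 42233 and KIT at 0 to 2733. The haemoglobin genes HBB and HBA1 were at 0 in 28 of 30 libraries each, while the erythroid list's TFRC was at 2090 to 16843. Some markers of other cell types were present in single lines. The DMSO medians were 501.8 for EPCAM in SKM-1, 348.9 for KRT18 in MOLM-14 and 189.0 for CD3E in KG-1. Of 7 monocyte and macrophage markers 6 were tested and 5 were called higher on the panel mean, against 12.0% of all tested genes (limma). CD14 was at most 5.36. Their summed level was 12826 to 14002 after decitabine against 5225 to 5544 in DMSO in MOLM-14, and 3152 to 3222 after decitabine against 2258 to 2356 in DMSO in KG-1. It was 17639 to 18355 after decitabine against 8486 to 9091 in DMSO in MOLM-13, 15935 to 19460 after decitabine against 6918 to 8007 in DMSO in OCI-AML3, and 17182 to 17684 after decitabine against 14928 to 15385 in DMSO in SKM-1. In SKM-1 most of this sum was LYZ, which was not called there (median 10449 after decitabine, 10731 in DMSO). CD68, ITGAM and MRC1 were called higher in SKM-1, by 1.49, 1.23 and 5.05 (limma), and CSF1R and CD163 were not called. Mitochondrial genes took 10.9% ± 0.51 of the value after decitabine against 8.66% ± 0.54 in DMSO in MOLM-14, and 12.1% ± 0.41 after decitabine against 11.3% ± 0.87 in DMSO in KG-1 (SD, n = 3 each). The part of these shifts in the results was not tested. In bulk RNA, fewer cells of a type and less RNA per cell cannot be told apart.

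On the panel mean 7 of the 9 genes were called lower and none higher, where 7.52% of all tested genes were called lower and 12.0% higher (limma); at an unadjusted p below 0.05 the counts were also 7 and 0. PSAT1 fell most, by 1.01 on the log2 scale (SE 0.05), and PHGDH fell by 0.90 (SE 0.08). As means over the lines these are 49.7% and 53.5% of the DMSO level. The PSAT1 difference ran from -2.24 in MOLM-14 to 0.03 in KG-1. The SE and p of a panel mean measure the spread of libraries within lines and not the spread between lines. MTHFD1L fell by 0.63 (SE 0.07), PSPH by 0.54 (SE 0.06), SHMT2 by 0.53 (SE 0.05), MTHFD2 by 0.49 (SE 0.06) and MTHFD1 by 0.29 (SE 0.03). The adjusted p of these 7 genes lay between 1.81e-13 for PSAT1 and 3.71e-06 for MTHFD2 (limma, BH-adjusted). SHMT1 differed by 0.08 (SE 0.12; limma, BH-adjusted p = 0.723) and ALDH1L2 by -0.59 (SE 0.32; limma, BH-adjusted p = 0.226), and neither was called. The median of the 9 differences was -0.54, beside 0.06 over all tested genes.

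**Figure D1:**
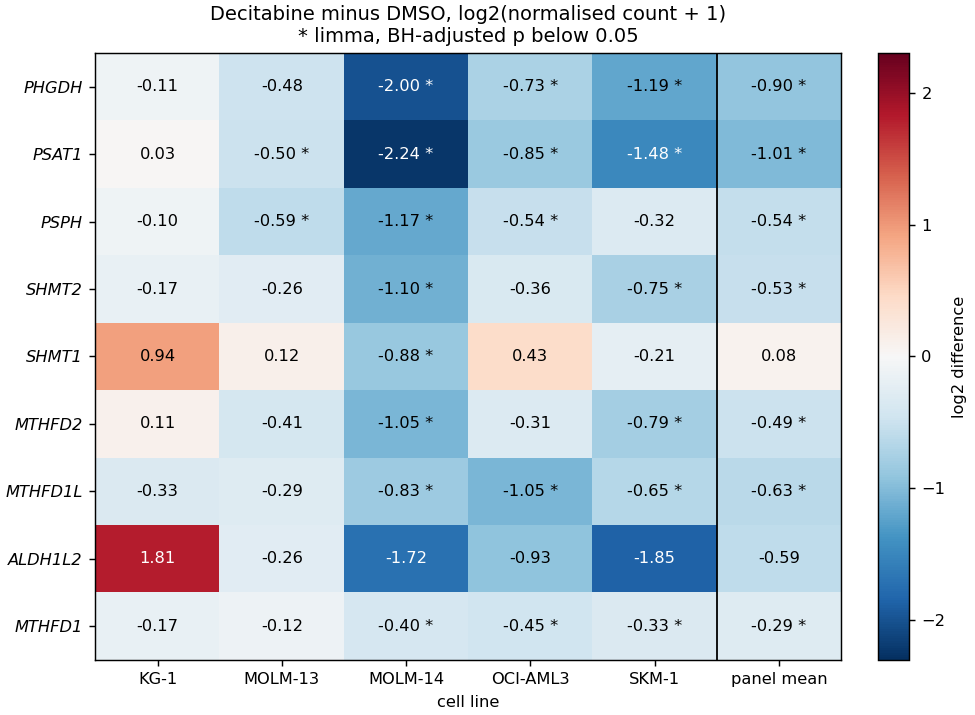
Decitabine minus DMSO differences of the 9 genes (rows) in each line and on the panel mean (columns), in log2(normalised count + 1), with an asterisk where limma called the gene. Blue cells are lower after decitabine: in the fit over all 30 libraries MOLM-14 holds 8 calls, SKM-1 6, OCI-AML3 5, MOLM-13 2 and KG-1 none.

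The lines did not respond alike. MOLM-14 had 8 members called lower (4.77% of all tested genes), SKM-1 6 (3.32%), OCI-AML3 5 (1.64%), MOLM-13 2 (1.67%) and KG-1 none (0.663%), which makes 21 calls in 45 tests, all downward (limma). None was called higher in any line, where 6.26% of all tested genes were called higher in MOLM-14, 5.70% in SKM-1, 3.74% in OCI-AML3, 1.45% in MOLM-13 and 3.12% in KG-1. In KG-1, 2 members were lower and 2 higher at an unadjusted p below 0.05. These calls rest on 1 spread per gene shared by all lines. Replicates of MOLM-13 correlated at 0.987 to 0.991 and those of OCI-AML3 at 0.922 to 0.968. With the line fitted alone, 7 members were called lower in MOLM-13 and 1 in OCI-AML3 (limma). The order of MOLM-13 and OCI-AML3 by calls therefore depended on the fit. The median member difference was -1.10 in MOLM-14, -0.75 in SKM-1, -0.54 in OCI-AML3, -0.29 in MOLM-13 and -0.10 in KG-1, while the median of all tested genes stayed between 0.01 and 0.08. All 3 decitabine libraries lay below all 3 DMSO libraries for 9 members in MOLM-14 (9.50% of all tested genes), 9 in SKM-1 (18.9%), 8 in MOLM-13 (17.0%), 7 in OCI-AML3 (7.42%) and 1 in KG-1 (6.44%). In KG-1 1 member, SHMT1, lay wholly above (10.2%), and in the other lines none did, against 11.2% of all tested genes in MOLM-14, 29.2% in SKM-1, 22.8% in MOLM-13 and 10.1% in OCI-AML3.

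**Figure D2:**
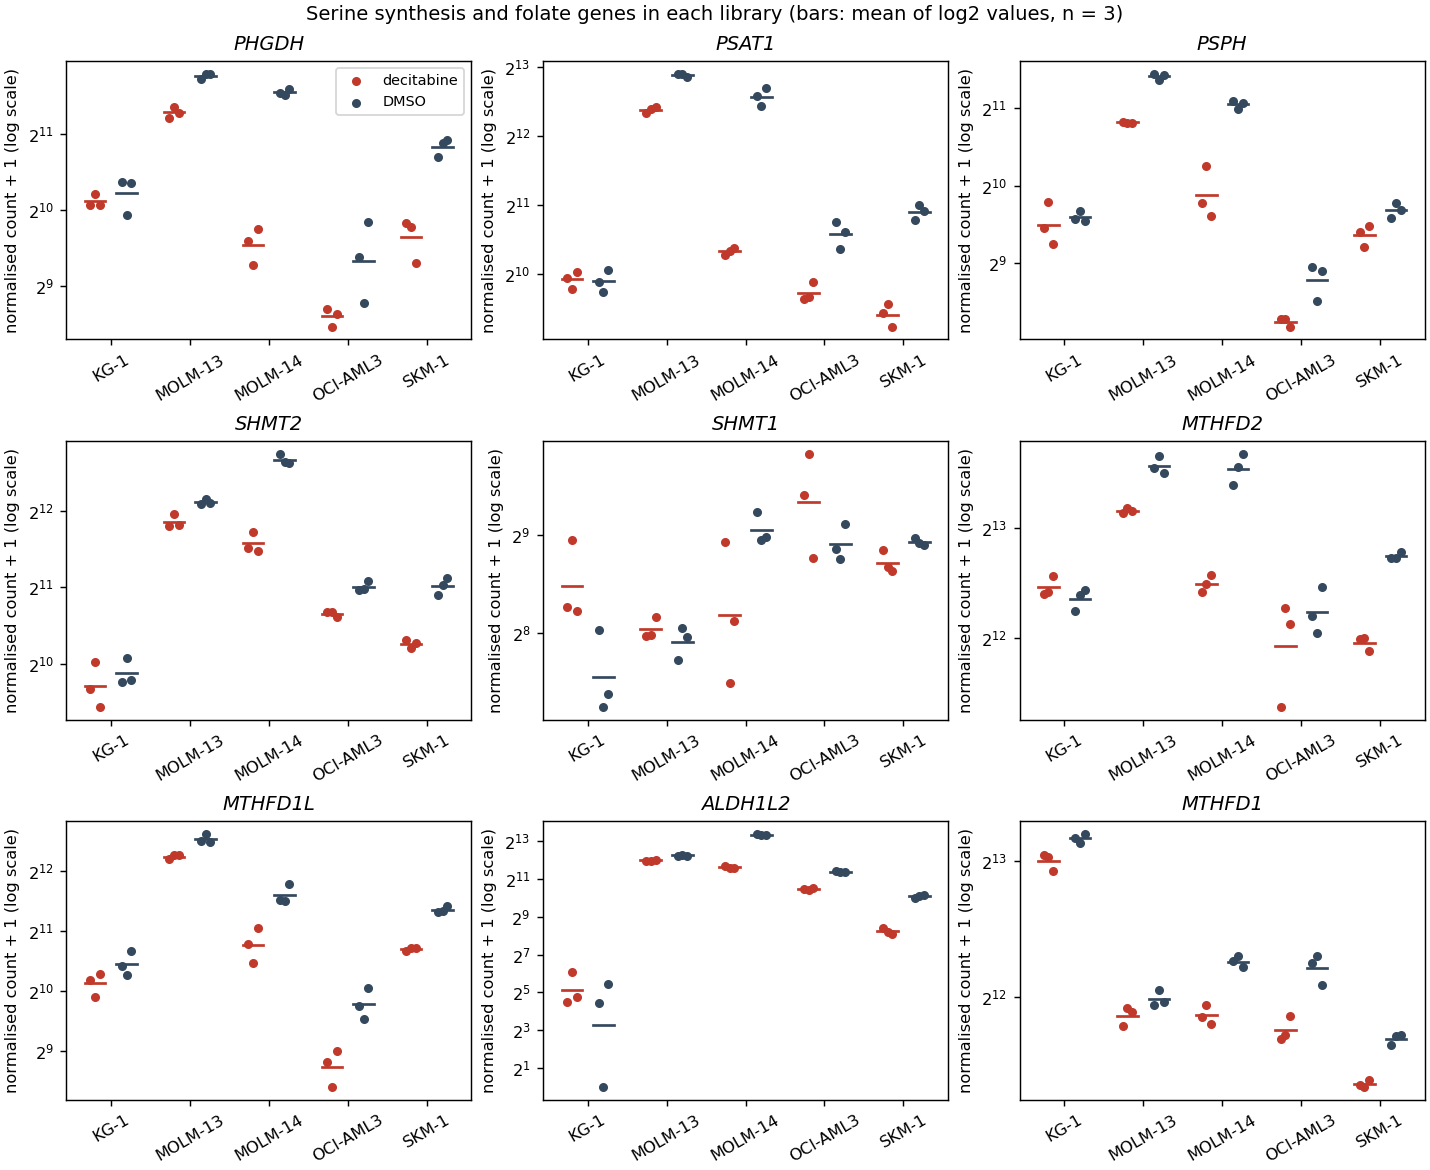
Normalised count + 1 of each gene in each of the 30 libraries, on a log scale that differs between panels, with decitabine (red) left of DMSO (blue) in every line; bars are means of the log2 values of 3 libraries. The MOLM-14 pairs of groups stand apart in every panel, and the KG-1 groups overlap in 7 of the 9 panels.

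PHGDH (ENSG00000092621.12, GRCh38 chromosome 1, 119648411 to 119744226, plus strand) encodes the first enzyme of serine synthesis. It had 773, 622 and 864 normalised counts in decitabine-treated MOLM-14 libraries, against 2965, 2914 and 3088 in DMSO, which is 25.0% of the DMSO level (log2 difference -2.00, SE 0.18; limma, BH-adjusted p = 4.89e-08). In SKM-1 it had 913, 879.7 and 634 after decitabine and 1657, 1882 and 1931 in DMSO (-1.19; limma, BH-adjusted p = 4.76e-05). Neither pair of groups overlapped. OCI-AML3 libraries held 416, 353 and 398 counts after decitabine and 669, 438 and 915 in DMSO. This group of DMSO libraries spread widely, and the call (-0.73; limma, BH-adjusted p = 0.0154) was lost without DMSO replicate 1 (-0.70; limma, BH-adjusted p = 0.0501), DMSO replicate 3 (-0.48; limma, BH-adjusted p = 0.107) or decitabine replicate 2 (-0.66; limma, BH-adjusted p = 0.0664) of that line. In MOLM-13 the groups were apart, at 2373, 2618 and 2489 after decitabine and 3379, 3536 and 3544 in DMSO, but the difference of -0.48 was not called (limma, BH-adjusted p = 0.187). With library weights estimated in the fit, the MOLM-13 difference of -0.49 was called (limma, BH-adjusted p = 0.000501). KG-1 had 1068, 1181 and 1077 counts after decitabine and 1320, 980.1 and 1308 in DMSO, and these groups overlapped.

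PSAT1 (ENSG00000135069.14, chromosome 9, 78297143 to 78330093, plus strand), the transaminase of the pathway, showed the same order of lines with tighter replicates. MOLM-14 libraries held 1244, 1290 and 1328 normalised counts after decitabine against 6107, 5550 and 6670 in DMSO (-2.24, SE 0.11; limma, BH-adjusted p = 1.57e-12), or 21.1% of the DMSO level. SKM-1 libraries held 691, 763 and 604 after decitabine against 1759, 2054 and 1930 in DMSO (-1.48; limma, BH-adjusted p = 3.95e-10). In OCI-AML3, where the call was lost with the line fitted alone (limma, BH-adjusted p = 0.0901), the values were 802, 813 and 944 after decitabine and 1735, 1322 and 1572 in DMSO (-0.85; limma, BH-adjusted p = 1.4e-05). PSAT1 was the member called in most lines, 4 of 5. In MOLM-13 it had 5163, 5394 and 5496 counts after decitabine and 7609, 7663 and 7448 in DMSO (-0.50; limma, BH-adjusted p = 0.00969). Although these groups lay far apart, the MOLM-13 call was lost without decitabine replicate 1 (-0.48; limma, BH-adjusted p = 0.063), DMSO replicate 1 (-0.50; limma, BH-adjusted p = 0.0522) or DMSO replicate 2 (-0.49; limma, BH-adjusted p = 0.0509) of that line, and after quantile normalization (-0.37; limma, BH-adjusted p = 0.138). The MOLM-13 call of PSAT1 was kept with library weights, without the 6 shallow libraries and with the line fitted alone. KG-1 libraries held 985, 886 and 1052 after decitabine and 950.1, 853 and 1071 in DMSO, a difference of 0.03 with overlapping groups.

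PSPH (ENSG00000146733.14, chromosome 7, 56011051 to 56051604, minus strand), the phosphatase that releases serine, fell less. It averaged 959 ± 234 normalised counts after decitabine and 2117 ± 76.8 in DMSO in MOLM-14 (SD, n = 3 each; -1.17; limma, BH-adjusted p = 2.93e-06). MOLM-13 averaged 1803 ± 8.52 after decitabine and 2719 ± 85.4 in DMSO (SD, n = 3 each), with no overlap. That MOLM-13 difference of -0.59 was called (limma, BH-adjusted p = 0.0169), but not when any 1 of the line's 6 libraries was left out (-0.62 to -0.58; limma, BH-adjusted p from 0.0529 without DMSO replicate 3 to 0.0876 without DMSO replicate 1), nor after quantile normalization (-0.45; limma, BH-adjusted p = 0.157). The MOLM-13 call of PSPH was kept with library weights, without the 6 shallow libraries and with the line fitted alone. In OCI-AML3 the means were 304 ± 12.3 after decitabine and 444 ± 69.5 in DMSO (SD, n = 3 each; -0.54; limma, BH-adjusted p = 0.022). The OCI-AML3 call was lost without DMSO replicate 1 (-0.45; limma, BH-adjusted p = 0.0986), DMSO replicate 3 (-0.48; limma, BH-adjusted p = 0.0779) or decitabine replicate 3 (-0.50; limma, BH-adjusted p = 0.0568). SKM-1 had 661 ± 61.2 counts after decitabine and 825 ± 55.1 in DMSO (SD, n = 3 each; -0.32; limma, BH-adjusted p = 0.188), and KG-1 731 ± 140.3 after decitabine and 774 ± 35.1 in DMSO (SD, n = 3 each).

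PHGDH and PSAT1 are shown with their promoter windows because they fell most and decitabine acts on CG methylation. The windows are RefSeq sequence (GRCh38.p14) from 250 bases before to 50 bases after an annotated start, read 5′ to 3′ on the plus strand, with every CG in capitals. That of PHGDH (chr1:119711684-119711983) starts inside the GENCODE gene body and holds 15 CG, and that of PSAT1 (chr9:78296875-78297174) holds 37.
PHGDH: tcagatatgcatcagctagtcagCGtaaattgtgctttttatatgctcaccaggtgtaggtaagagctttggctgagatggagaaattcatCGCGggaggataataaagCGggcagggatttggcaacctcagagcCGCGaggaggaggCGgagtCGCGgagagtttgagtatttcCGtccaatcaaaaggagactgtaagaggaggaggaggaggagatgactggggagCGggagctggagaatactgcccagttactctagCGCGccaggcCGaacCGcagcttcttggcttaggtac
PSAT1: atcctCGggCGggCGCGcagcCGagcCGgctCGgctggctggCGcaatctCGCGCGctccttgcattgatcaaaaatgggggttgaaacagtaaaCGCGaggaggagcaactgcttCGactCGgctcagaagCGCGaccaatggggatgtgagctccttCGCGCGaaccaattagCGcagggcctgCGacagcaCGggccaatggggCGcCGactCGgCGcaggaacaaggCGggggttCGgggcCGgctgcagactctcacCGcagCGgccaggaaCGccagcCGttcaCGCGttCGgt
Over 35116 RefSeq windows of the same length the median was 14 CG, with quartiles of 4 and 28, so that PHGDH lies at the middle and PSAT1 above the upper quartile. Both genes fell, with unequal CG content, and a link of CG content to the fall was not tested. The windows of SHMT1, MTHFD2 and MTHFD1 held 23, 27 and 20 CG, and 4 windows of MTHFD1L held 41, 40, 40 and 5. DNA methylation was not analysed here.

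The motifs were searched on both strands in the windows of 6 members (PHGDH, PSAT1, SHMT1, MTHFD2, MTHFD1L and MTHFD1): TGATGNAA, the core of the element that ATF4 and C/EBP proteins share, CACGTG, the E-box bound by MYC among others, and CGGAAG, the ETS core bound by GABPA. They do not overlap one another, and they occur in 3.62%, 7.26% and 19.5% of all windows. The PHGDH, PSAT1, SHMT1 and MTHFD2 windows hold none of these motifs. MTHFD1L (window chr6:150866197-150866496, plus strand) holds TGATGCAA from base -90 to -83 and CACGTG from -115 to -110 of its start. MTHFD1 (window chr14:64388103-64388402, plus strand) holds CACGTG from -15 to -10, and CGGAAG on the minus strand from -163 to -158 and from -107 to -102. Both are printed with these matches in capitals.
MTHFD1L: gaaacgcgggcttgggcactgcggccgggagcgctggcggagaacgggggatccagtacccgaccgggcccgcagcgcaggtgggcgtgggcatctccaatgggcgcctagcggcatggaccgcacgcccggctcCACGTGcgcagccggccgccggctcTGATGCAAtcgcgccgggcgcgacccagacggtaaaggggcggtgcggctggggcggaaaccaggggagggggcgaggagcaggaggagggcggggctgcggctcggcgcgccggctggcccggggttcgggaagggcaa
MTHFD1: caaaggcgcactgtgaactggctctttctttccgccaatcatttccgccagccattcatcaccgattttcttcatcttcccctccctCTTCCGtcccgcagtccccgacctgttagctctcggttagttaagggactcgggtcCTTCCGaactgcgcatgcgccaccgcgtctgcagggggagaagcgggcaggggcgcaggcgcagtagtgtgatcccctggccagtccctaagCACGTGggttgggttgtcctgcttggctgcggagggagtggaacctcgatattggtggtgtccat
A further 2 of the 4 MTHFD1L windows overlap this one and hold the same matches, and the last holds none. A match is a description of letters and not a binding site.

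SHMT2 (ENSG00000182199.11, chromosome 12, 57229327 to 57234935, plus strand) fell in the lines where PHGDH and PSAT1 fell most. It had 2934, 3375 and 2859 normalised counts in decitabine-treated MOLM-14, against 6880, 6383 and 6346 in DMSO (-1.10, SE 0.11; limma, BH-adjusted p = 2.13e-07). In SKM-1 it had 1270, 1179 and 1240 after decitabine and 1903, 2089 and 2223 in DMSO (-0.75; limma, BH-adjusted p = 2.73e-05). The groups stood apart in both lines. OCI-AML3 held 1633, 1641 and 1557 after decitabine and 2003, 2010 and 2176 in DMSO, again without overlap, yet the difference of -0.36 missed the threshold (limma, BH-adjusted p = 0.0576). It passed without decitabine replicate 2 of KG-1 (limma, BH-adjusted p = 0.0178), decitabine replicate 3 of KG-1 (0.029), DMSO replicate 2 of KG-1 (0.0387) or decitabine replicate 2 of MOLM-14 (0.0453), libraries that enter only the shared spread. MOLM-13 averaged 3721 ± 234 after decitabine and 4437 ± 93.4 in DMSO, and KG-1 847 ± 175 after decitabine and 945 ± 118 in DMSO (SD, n = 3 each), and neither difference was called.

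SHMT1 (ENSG00000176974.20, chromosome 17, 18327860 to 18363563, minus strand), the cytosolic counterpart, did not follow SHMT2. In KG-1 it had 307, 494 and 299 normalised counts after decitabine against 259, 149.7 and 164 in DMSO, so that every decitabine library was higher, with a difference of 0.94 that was not called (SE 0.28; limma, BH-adjusted p = 0.0595). MOLM-14 libraries held 487, 178 and 277 after decitabine against 602, 494 and 505 in DMSO (-0.88; limma, BH-adjusted p = 0.0414). That MOLM-14 call rested on the shallow replicate 2, which had the lowest value: without it the difference was -0.53 (limma, BH-adjusted p = 0.27), and without all 6 shallow libraries -0.58 (limma, BH-adjusted p = 0.119). It was also lost without decitabine replicate 3 (-0.85), DMSO replicate 1 (-0.79), DMSO replicate 2 (-0.93) or DMSO replicate 3 (-0.92) of MOLM-14 (limma, BH-adjusted p = 0.062 to 0.112), and without decitabine replicate 2 or any DMSO library of SKM-1 (limma, BH-adjusted p = 0.0502 to 0.0505). The KG-1 difference passed the threshold without DMSO replicate 1 of KG-1 (1.18; limma, BH-adjusted p = 0.0219), and without decitabine replicate 1 (0.022) or 2 (0.0236) of MOLM-14, or decitabine replicate 2 (0.0417) or 3 (0.0377) of OCI-AML3 (0.94 each; limma, BH-adjusted p). OCI-AML3 averaged 677 ± 240.2 after decitabine and 484 ± 63.4 in DMSO, and SKM-1 422 ± 34 after decitabine and 488 ± 11.4 in DMSO (SD, n = 3 each). MOLM-13 averaged 261 ± 20.5 after decitabine and 240.1 ± 27.4 in DMSO (SD, n = 3 each), and none of these 3 differences was called.

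Among the folate enzymes, MTHFD2 (ENSG00000065911.12, chromosome 2, 74198562 to 74217565, plus strand) is the mitochondrial dehydrogenase and cyclohydrolase. MOLM-14 libraries held 5474, 5732 and 6087 normalised counts after decitabine against 10733, 11995 and 13041 in DMSO (-1.05, SE 0.14; limma, BH-adjusted p = 2.12e-05). In SKM-1 the values were 4060, 4099 and 3767 after decitabine and 6785, 6773 and 7017 in DMSO (-0.79; limma, BH-adjusted p = 0.000444). Both pairs of groups were apart. MOLM-13 libraries also stood apart, at 9012, 9290 and 9085 after decitabine against 11891, 12874 and 11573 in DMSO, with a difference of -0.41 that was not called (limma, BH-adjusted p = 0.15). It was called without decitabine replicate 1 of OCI-AML3 (-0.41; limma, BH-adjusted p = 0.00925), the library in which MTHFD2 was lowest: OCI-AML3 had 2654, 4944 and 4481 after decitabine and 4696, 4224 and 5657 in DMSO. Those OCI-AML3 groups overlapped; without the 6 shallow libraries the difference there was -0.58 (limma, BH-adjusted p = 0.0297), against -0.31 with them, and without decitabine replicate 1 of OCI-AML3 alone it was -0.04 (limma, BH-adjusted p = 0.92). KG-1 averaged 5641 ± 359 after decitabine and 5242 ± 355 in DMSO (SD, n = 3 each), with overlapping groups.

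MTHFD1L (ENSG00000120254.15, chromosome 6, 150865549 to 151101887, plus strand), the mitochondrial enzyme that releases formate, was the member with the largest called difference in OCI-AML3. That line held 448, 337 and 509.7 normalised counts after decitabine against 864, 740.3 and 1059 in DMSO (-1.05, SE 0.15; limma, BH-adjusted p = 7.37e-05). MOLM-14 had 1754, 1420 and 2124 after decitabine and 2941, 2884 and 3533 in DMSO (-0.83; limma, BH-adjusted p = 0.000647), and SKM-1 1630, 1684 and 1687 after decitabine and 2560, 2569 and 2716 in DMSO (-0.65; limma, BH-adjusted p = 0.00523). None of these 3 pairs overlapped. Fitted on their own libraries alone, neither OCI-AML3 (limma, BH-adjusted p = 0.119) nor MOLM-14 (0.0627) kept the call. MOLM-13 averaged 4834 ± 141 after decitabine and 5916 ± 317 in DMSO, and KG-1 1122 ± 149 after decitabine and 1407 ± 198 in DMSO (SD, n = 3 each), and neither difference was called.

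ALDH1L2 (ENSG00000136010.14, chromosome 12, 105019784 to 105084577, minus strand), the mitochondrial formyl-tetrahydrofolate dehydrogenase, had the widest range of levels. MOLM-14 held 3285, 3107 and 3051 normalised counts after decitabine against 10693, 10289 and 10199 in DMSO (-1.72). SKM-1 held 337, 292 and 271 after decitabine against 1023, 1077 and 1151 in DMSO (-1.85), and OCI-AML3 1397, 1355 and 1445 after decitabine against 2714, 2663 and 2622 in DMSO (-0.93). The replicates of these lines agreed closely and the groups were far apart, yet no difference was called in the fit, which shares 1 spread per gene over all lines (SE 0.72). KG-1 held 21.7, 66.4 and 25.7 counts after decitabine and 20.6, 0 and 43 in DMSO, and 1 read was worth 6.64 in the DMSO library listed at 0, so that 3 reads there would give 19.9. Without that 1 library the differences were called in MOLM-14 (limma, BH-adjusted p = 5.51e-05), SKM-1 (1.16e-05), OCI-AML3 (0.0265) and on the panel mean (-0.92; limma, BH-adjusted p = 2.38e-06). Without DMSO replicate 3 of KG-1 the SKM-1 difference (limma, BH-adjusted p = 0.0448) and the KG-1 difference (2.89; limma, BH-adjusted p = 0.00897) were called. The KG-1 difference, 1.81 with all libraries and not called, rested on the library at 0: it was 0.16 without it and -0.33 without the 6 shallow libraries, and not called in either. Leaving out the KG-1 line gave a panel mean of -1.19 (limma, BH-adjusted p = 1.63e-14). MOLM-13 held 3990, 3978 and 4130 counts after decitabine against 4829, 4862 and 4813 in DMSO (-0.26), a difference called, among the alternatives run, when that line was fitted alone (limma, BH-adjusted p = 0.00523).

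MTHFD1 (ENSG00000100714.17, chromosome 14, 64388031 to 64463457, plus strand), the cytosolic enzyme of the same chemistry, fell in 3 lines, by 0.33 to 0.45 on the log2 scale. OCI-AML3 averaged 3473 ± 220.1 normalised counts after decitabine and 4764 ± 367 in DMSO (SD, n = 3 each; -0.45; limma, BH-adjusted p = 8.8e-05). MOLM-14 averaged 3738 ± 178 after decitabine and 4914 ± 137 in DMSO (-0.40; limma, BH-adjusted p = 0.000287), and SKM-1 2638 ± 51 after decitabine and 3319 ± 91.5 in DMSO (-0.33; limma, BH-adjusted p = 0.00132; SD, n = 3 each). In KG-1 (8185 ± 369.6 after decitabine, 9185 ± 206 in DMSO) and MOLM-13 (3735 ± 176 after decitabine, 4070 ± 167 in DMSO) the differences of -0.17 and -0.12 were not called (SD, n = 3 each). With the line fitted alone the calls in OCI-AML3 (limma, BH-adjusted p = 0.219) and MOLM-14 (0.0863) were lost.

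Exons of SHMT2, SHMT1, MTHFD2, ALDH1L2 and MTHFD1 overlap genes on the opposite strand: NDUFA4L2 (33 bases of SHMT2), SMCR8 (196 bases of SHMT1), SLC4A5 (1324 bases of MTHFD2), C12orf45 (145 bases of ALDH1L2) and ZBTB25 (178 bases of MTHFD1) among them. The libraries were stranded but whether counting used strand is not given in the sources used here, so reads shared with these partners cannot be told apart. Pseudogene copies were low: of 16 listed near copies 14 had a row, none passed the filter, and the highest value of any was 18.1 (MTHFD2P1). PSPHP1, PSAT1P1, PSAT1P3, PSAT1P4, SHMT1P1, MTHFD2P2, MTHFD2P3, MTHFD2P4, MTHFD2P5, MTHFD2P7 and MTHFD1P1 stayed below that, and PSAT1P2 and MTHFD2P6 were at 0 in all 30 libraries.

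Differences between a pair of members within the same library hardly depend on the library's scale factor and were described without a test. SHMT2 minus SHMT1, the mitochondrial over the cytosolic hydroxymethyltransferase, was lower after decitabine in 4 of 5 lines without overlap. In KG-1 it averaged 1.23 ± 0.17 after decitabine and 2.34 ± 0.56 in DMSO, and in SKM-1 1.54 ± 0.09 after decitabine and 2.08 ± 0.15 in DMSO (log2, SD, n = 3 each). MOLM-14 was the line where the groups overlapped, at 3.40 ± 0.82 after decitabine and 3.62 ± 0.09 in DMSO. Over the panel this pair shifted by -0.61.

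MTHFD2 minus MTHFD1 shifted by -0.19 over the panel, with a split between lines. It averaged 0.62 ± 0.12 after decitabine and 1.27 ± 0.16 in DMSO in MOLM-14, 0.59 ± 0.09 after decitabine and 1.05 ± 0.03 in DMSO in SKM-1, and 1.29 ± 0.05 after decitabine and 1.57 ± 0.04 in DMSO in MOLM-13 (log2, SD, n = 3 each). In KG-1 every decitabine library lay above every DMSO library instead (-0.54 ± 0.16 after decitabine, -0.81 ± 0.10 in DMSO). MTHFD1L minus MTHFD1 was lower without overlap in MOLM-13, OCI-AML3 and SKM-1, and shifted by -0.33 over the panel. PSAT1 minus PSPH, 2 consecutive steps, shifted by -1.16 in SKM-1, -1.07 in MOLM-14 and -0.31 in OCI-AML3 without overlap, and overlapped in KG-1 and MOLM-13.

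**Figure D3:**
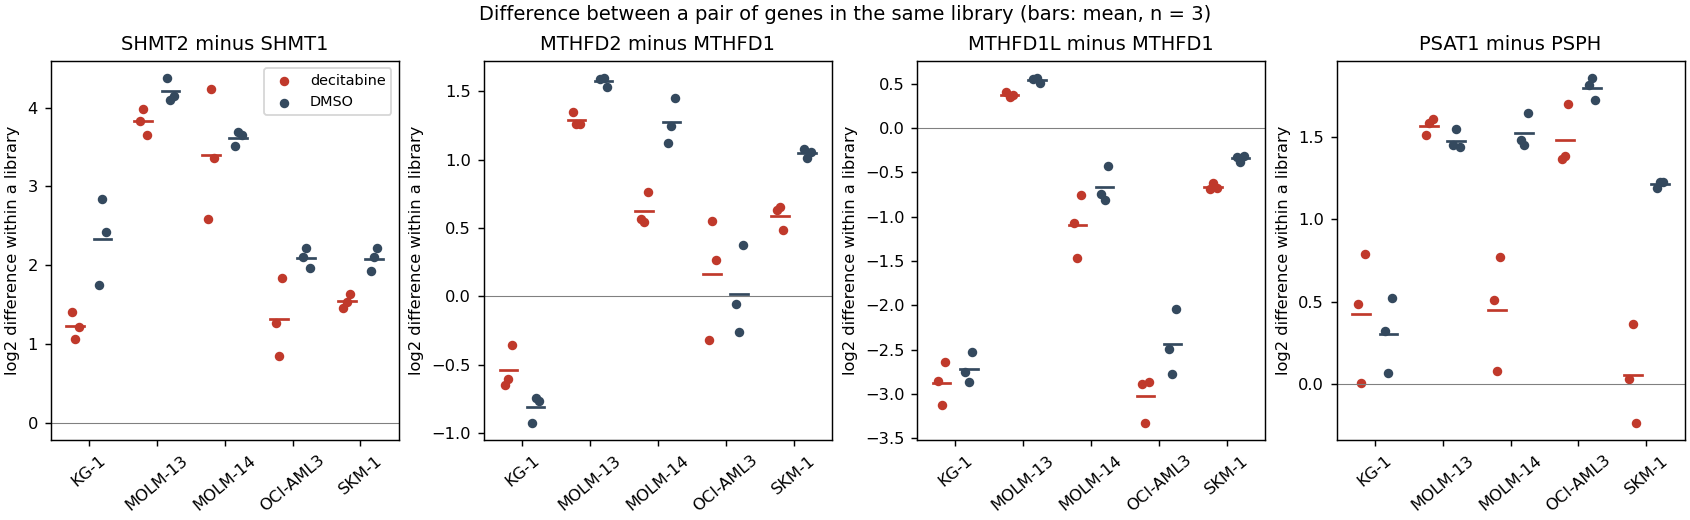
Log2 difference between the members of 4 pairs within each library, by line, with decitabine (red) left of DMSO (blue) and bars at the mean of 3 libraries. SHMT2 minus SHMT1 lies lower after decitabine in every line but MOLM-14, where the groups overlap, and MTHFD2 minus MTHFD1 lies higher in KG-1.

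Whether the 5 responses were equal was tested by an F-test within the same fit. There were 6 members that differed between lines: PSAT1 (limma F-test, BH-adjusted p = 2.56e-09), PHGDH (0.00011), SHMT2 (0.000576), MTHFD2 (0.00274), PSPH (0.00611) and SHMT1 (0.0241), where 9.46% of all tested genes did. MTHFD1 (limma F-test, BH-adjusted p = 0.062), MTHFD1L (0.0626) and ALDH1L2 (0.0787) did not pass. Each line was then set against the mean of the other lines, which gave 13 calls in 45 tests. MOLM-14 held 6 of them (3.62% of all tested genes), all lower: PSAT1 (-1.54), PHGDH (-1.37), SHMT1 (-1.20), PSPH (-0.78), SHMT2 (-0.72) and MTHFD2 (-0.70). KG-1 held 5 (3.02%), all higher than in the other lines: ALDH1L2 by 3.00, PSAT1 by 1.30, PHGDH by 1.00, MTHFD2 by 0.74 and SHMT2 by 0.44. MOLM-13 differed in PSAT1 alone (0.64; 1.38% of all tested genes), SKM-1 in PSAT1 alone (-0.59; 3.88%) and OCI-AML3 in none (2.41%; 2 members lower at an unadjusted p below 0.05). The KG-1 values for ALDH1L2 and SHMT2 and the MOLM-14 value for SHMT1 were not firm: leaving out single libraries ended these calls in 13, 20 and 4 of the 30 fits. The ALDH1L2 value was 1.35 without DMSO replicate 2 of KG-1, the library listed at 0, and 0.86 without the 6 shallow libraries, against 3.00. The SHMT2 value was 0.29 without decitabine replicate 2 of KG-1, against 0.44, and the SHMT1 value was -0.73 without the shallow libraries, against -1.20.

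MOLM-13 and MOLM-14, the sister lines, were compared directly. The response of MOLM-13 minus that of MOLM-14 was 1.74 for PSAT1 (limma, BH-adjusted p = 3.1e-07), 1.52 for PHGDH (0.0023) and 0.84 for SHMT2 (0.00478), 3 of the 9 members where 1.43% of all tested genes were called. Their DMSO levels of PHGDH were not told apart, at 3486 ± 93.1 normalised counts in MOLM-13 and 2989 ± 89.4 in MOLM-14 (SD, n = 3 each; limma, BH-adjusted p = 0.368). After decitabine MOLM-13 held 2494 ± 122 counts of PHGDH and MOLM-14 753 ± 122 (SD, n = 3 each). The DMSO levels of the other 2 genes differed. MOLM-13 minus MOLM-14 in DMSO was 0.31 for PSAT1 (limma, BH-adjusted p = 0.0257) and -0.56 for SHMT2 (limma, BH-adjusted p = 0.000247). The MOLM-14 libraries were shallower, and this difference in depth goes with the line.

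Levels without the drug also differed between lines, in 76 of 90 pairwise tests of a member in DMSO, a share read against the 36.2% to 50.6% of all tested genes that differed in the same pairs (limma). KG-1 differed from MOLM-14 in all 9 members (44.7% of all tested genes), and from MOLM-13 (49.5%), SKM-1 (49.2%) and OCI-AML3 (43.4%) in 8 each. MOLM-13 differed from SKM-1 in 9 (40.6%), from OCI-AML3 in 8 (47.9%) and from MOLM-14 in 6 (36.2%). MOLM-14 differed from OCI-AML3 (38.3%) and SKM-1 (50.4%) in 7 each, and OCI-AML3 from SKM-1 in 6 (50.6%). PHGDH, PSPH, MTHFD2 and MTHFD1L shared 1 order, with MOLM-13 first, then MOLM-14, SKM-1, KG-1 and OCI-AML3. PSAT1 ran from MOLM-13 (7573 ± 111 normalised counts) over MOLM-14 (6109 ± 560.0), SKM-1 (1914 ± 148) and OCI-AML3 (1543 ± 208) to KG-1 (958 ± 109; SD, n = 3 each), a range of 7.90-fold in which every neighbour differed (limma). Neighbours that were not told apart were MOLM-13 and MOLM-14 for PHGDH and MTHFD2, SKM-1 and KG-1 for PSPH, KG-1 and OCI-AML3 for MTHFD2, and MOLM-14 and SKM-1 for MTHFD1L. SHMT2 was highest in MOLM-14 and lowest in KG-1, with SKM-1 and OCI-AML3 next to each other and not told apart (limma, BH-adjusted p = 0.987).

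MTHFD1 had another order: KG-1, with 9185 ± 206 normalised counts in DMSO, stood first, and SKM-1, with 3319 ± 91.5, last. KG-1 therefore had the highest DMSO level of the cytosolic enzyme and the lowest of PSAT1, SHMT2, SHMT1 and ALDH1L2. SHMT1 ran from MOLM-14 over SKM-1, OCI-AML3 and MOLM-13 to KG-1, and of its neighbours only OCI-AML3 and MOLM-13 were told apart. ALDH1L2 ran from MOLM-14 over MOLM-13, OCI-AML3 and SKM-1 to KG-1, whose difference from SKM-1 was the one called between neighbours. Per kilobase of the principal transcript, the median over the lines of the DMSO level was highest for MTHFD2 (1539) and MTHFD1 (1519) and lowest for SHMT1 (196). Line and sequencing depth go together here and cannot be told apart.

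**Figure D4:**
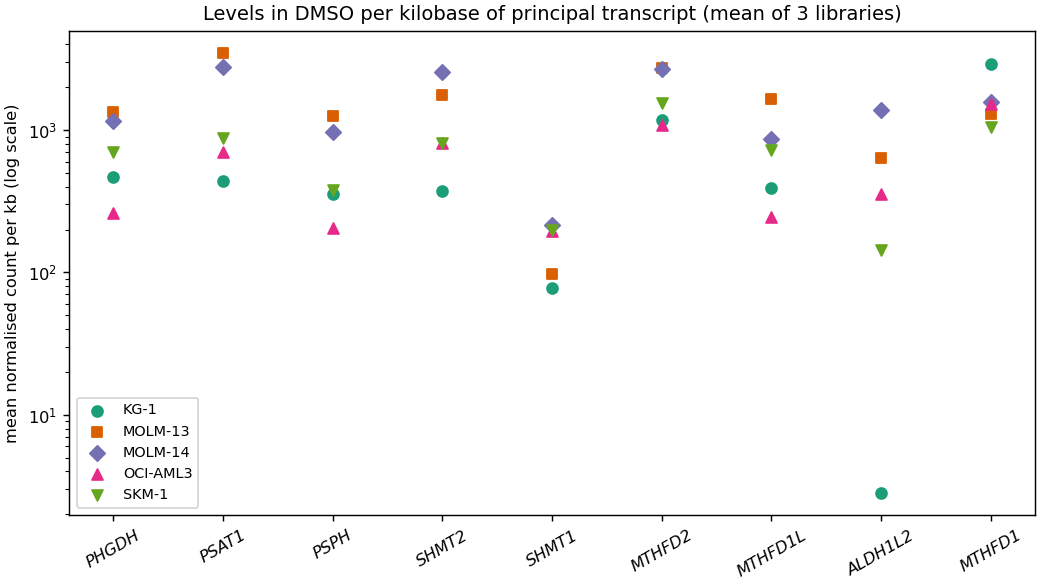
Mean normalised count per kilobase of the principal transcript in DMSO (log scale) for each gene, with 1 symbol per line (3 libraries each). MOLM-13 and MOLM-14 hold the upper places for 7 of the genes, KG-1 lies at the top for MTHFD1, and its ALDH1L2 level lies far below the others.

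Of 13 genes of purine synthesis, a pathway that draws on one-carbon folate, 10 were called lower and 1 higher on the panel mean (median -0.26). Over all tested genes these shares were 7.52% and 12.0% (limma). PAICS fell by 0.42, PRPS2 by 0.33 and GMPS by 0.32 (limma, BH-adjusted p = 5.91e-10, 1.02e-05 and 1.18e-05), while ADSS1, the muscle-type adenylosuccinate synthase, rose by 0.66 at a low level (87.4 normalised counts after decitabine and 53.6 in DMSO on average; limma, BH-adjusted p = 0.00398). Of 15 other folate enzymes and carriers 4 fell, against 7.52% of all tested genes (median -0.01). The folate carriers SLC19A1 of the plasma membrane and SLC25A32 of mitochondria fell by 0.35 and 0.31, and the mitochondrial reductase DHFR2 by 0.27 (limma, BH-adjusted p = 0.00172, 1.98e-06 and 0.0208). In the methionine cycle 3 of 10 genes fell (7.52% of all tested genes) and none rose (12.0%), with a median of -0.15. Those that fell were MTR, the methionine synthase, by 0.31, MAT2A by 0.28 and AHCY by 0.12.

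Genes that handle serine and glycine split. CTH, which ends the route from serine to cysteine, fell by 0.90 on the panel mean, with -2.80 in MOLM-14 and 0.57 in KG-1 (limma F-test between lines, BH-adjusted p = 0.000186). CBS, the step before it, fell by 0.38 on the panel, with -1.67 in MOLM-14 (limma, BH-adjusted p = 7.46e-07). In the other lines it ran from -0.39 in KG-1 to 0.21 in SKM-1 and was not called. SRR, the serine racemase, fell by 0.62 and ALAS1, which uses glycine for haem, rose by 0.36 (limma, BH-adjusted p = 0.047 and 0.00623). In that list 6 of 15 genes fell (7.52% of all tested genes) and 2 rose (12.0%), with a median of -0.19. Of 4 glycine cleavage genes GCSH fell by 0.45 and no other was called (median 0.24), and of 3 mitochondrial serine carriers SFXN1 fell by 0.22 and SFXN3 rose by 0.22.

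Upstream, 6 of 15 glycolytic genes fell (7.52% of all tested genes) and 3 rose (12.0%), with a median of -0.09. HK1 rose by 0.55, while HK2 fell by 0.32 and PFKP by 0.30. ALDOC rose by 0.42 on the panel mean, but its lines went in both directions (limma F-test between lines, BH-adjusted p = 0.00353). Its differences were 1.14 in SKM-1, 1.10 in KG-1 and 0.89 in MOLM-14, against -0.49 in MOLM-13 and -0.53 in OCI-AML3. ALDOC was low, at 103 normalised counts after decitabine and 99.4 in DMSO on average. Among 23 regulators and known ATF4 targets 9 fell (7.52% of all tested genes) and 1 rose (12.0%) on the panel mean (median -0.20). CHAC1, which breaks down glutathione, fell by 1.27, ASNS, asparagine synthetase, by 0.94, DDIT4, an inhibitor of mTORC1 signalling, by 0.79 and the transcription factor MYC by 0.74 (limma, BH-adjusted p = 7.54e-08, 1.51e-07, 2.5e-08 and 1.8e-11). In MOLM-14, the line in which the members fell most, 12 of the 23 were lower (4.77% of all tested genes) and the median was -1.11. ATF4 itself, looked up after these values were seen, differed by -0.05 in KG-1, -0.15 in MOLM-13, -0.87 in MOLM-14, -0.77 in OCI-AML3 and -0.82 in SKM-1, and ATF5 by 0.80, 1.73, -1.37, 0.43 and 1.26 in the same order of lines. The list was chosen with earlier results of these data known, and its counts are a description.

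**Figure D5:**
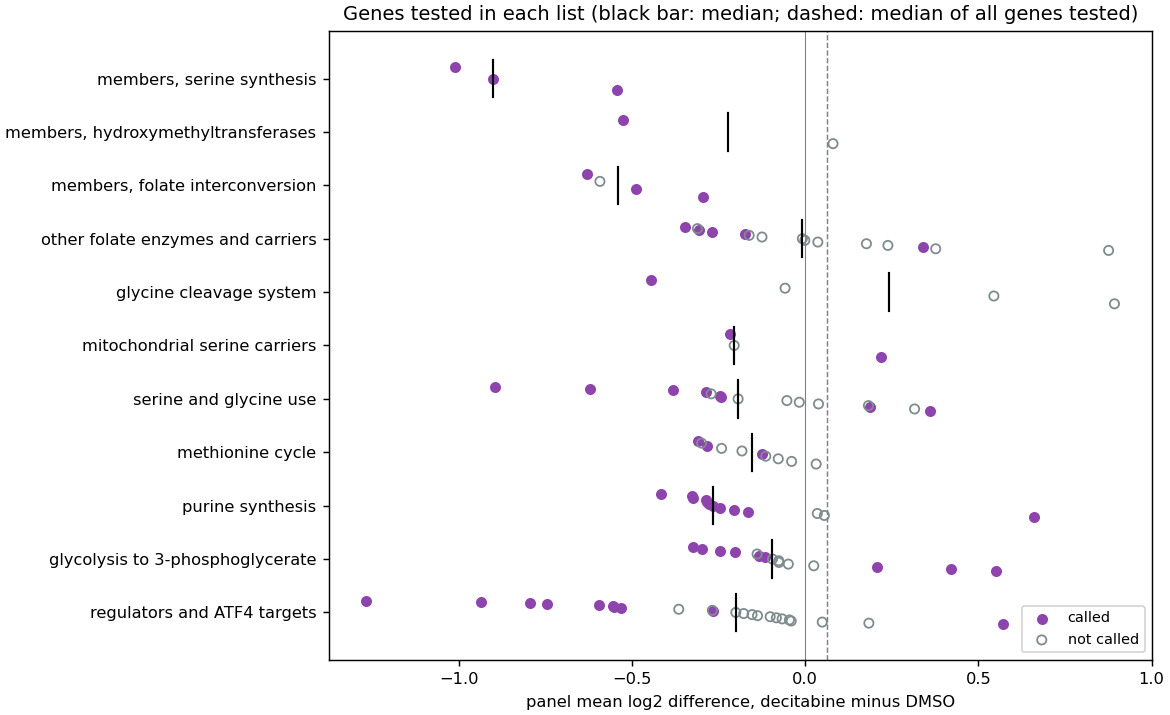
Panel mean differences (log2, horizontal axis) of the tested genes in each list (rows), filled where limma called the gene; the black bar is the list's median and the dashed line the median of all tested genes. Serine synthesis lies furthest left, with a median of -0.90.

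The genes whose 5 line differences lay nearest to those of a member were found among 10442 other protein-coding genes by the root mean square of the log2 gaps over the 5 lines. Nearest to PHGDH were PCK2 (0.18), GPT2 (0.18), WARS1 (0.19) and TUBE1 (0.20). PSAT1 had SLC7A5 (0.17), SLC3A2 (0.26), PCK2 (0.31) and TUBE1 (0.33) as its nearest. SLC7A5 and SLC3A2 are the 2 chains of an amino acid transporter, and the SLC7A5 differences ran from -0.22 in KG-1 and -0.68 in MOLM-13 to -1.06 in OCI-AML3, -1.43 in SKM-1 and -2.20 in MOLM-14. MTHFD2 lay nearest to EXOSC8 (0.12), DIAPH3 (0.13), H2BC15 (0.13) and TXLNG (0.14). Within the family, MTHFD2 and SHMT2 were 0.15 apart and PHGDH and PSAT1 0.19, the smallest of all 36 pairs, while ALDH1L2 and MTHFD1 were furthest apart (1.28). All 5 points of each gene share the same libraries.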

How the data were processed

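The libraries were stranded total RNA, made after ribosomal RNA depletion and sequenced from 1 end to 50 bp, as the labels' protocols state. The authors deposited a gene table of normalised counts on a signal scale, DESeq2-normalised as its title says, with factors not given in the sources used here; the submitters' processing notes name Salmon 1.2.1, STAR, featureCounts, DESeq2, limma and hg38, without their roles. Only 44.2% to 68.6% of low values were whole multiples of 1 read (tolerance 0.02), so no count model was run, and depth was estimated as a library's total over the value of 1 read. Wells were seeded in duplicate or triplicate per the labels, and replicates may be technical, so that p-values may measure technical spread only.

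Columns were matched to labels by line, treatment and replicate; the treatment letters appear in the descriptions of MOLM-13 and SKM-1 and were read alike in the other lines. Libraries labelled THP-1 or OCI-AML2 (12) were not analysed here, and 12 columns of no labelled sample were not used. Gene coordinates are GRCh38 (GENCODE 29, 58064 genes matched by identifier). Genes that reached 10 in 3 or more libraries were tested with limma 3.58.1 (R 4.3.3, statmod 1.5.0; Python 3.11.15 for summaries) on log2(value + 1), with 10 group means, 20 residual degrees of freedom, and a trended, robust spread; a difference on this scale understates low genes. The fit was tested on simulated data.

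The members, gene lists and alternatives were chosen with earlier results of these data known. Beyond the 9 members, the text names up to 4 called genes of each list with the largest panel difference, and the 4 genes most like PHGDH, PSAT1 and MTHFD2 (mean of at least 100); 1 gene that this rule names is not reported here. Alternatives were pseudocounts of 0.5 and 10, no filter, a filter of 50, quantile normalization, scaling without mitochondrial genes, a replicate block, library weights, leaving out libraries or lines, and fits of single lines.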

Additional observations from a re-analysis of the deposited data

Results flagged for a closer look

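The response to decitabine differed between the 5 lines for 6 genes, by the F-test of the difference itself, as it did for 9.46% of all tested genes: PSAT1 (limma F-test, BH-adjusted p = 2.56e-09), PHGDH (0.00011), SHMT2 (0.000576), MTHFD2 (0.00274), PSPH (0.00611) and SHMT1 (0.0241). For the first 5 the lowest response was that of MOLM-14 and the highest that of KG-1. SHMT1 is the gene whose decitabine libraries lay wholly above DMSO in KG-1 (10.2% of all tested genes) and wholly below it in MOLM-14 (9.50%). Its KG-1 difference was not called (limma, BH-adjusted p = 0.0595). Its MOLM-14 call was lost without the shallow decitabine replicate 2 of that line (-0.53; limma, BH-adjusted p = 0.27). The responses of the sister lines differed as well, MOLM-13 minus MOLM-14 being 1.74 for PSAT1, 1.52 for PHGDH and 0.84 for SHMT2 (limma, BH-adjusted p = 3.1e-07, 0.0023 and 0.00478). Of all tested genes 1.43% were called in that comparison.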

How the results depend on the processing

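On the panel mean 7 or 8 members were called lower under every alternative run, and 7 or 8 without any 1 line, and none rose. Without any 1 library the counts of members called lower were 7 to 8 on the panel, 7 to 9 in MOLM-14, 6 to 7 in SKM-1, 3 to 7 in OCI-AML3, 0 to 3 in MOLM-13 and 0 in KG-1; 0 to 1 was higher in KG-1, 5 to 8 differed between lines, 11 to 15 of 45 differed for 1 line against the others, 3 to 4 between MOLM-13 and MOLM-14, and 73 to 78 of 90 DMSO levels (76 with all). Other settings moved some counts. In MOLM-13, 0 members were lower after quantile normalization, 4 without the 6 shallow libraries, and 7 with library weights or with the line fitted alone, against 2. In OCI-AML3, 8 were lower without the shallow libraries and 1 with the line fitted alone, against 5; that 1 was ALDH1L2 (limma, BH-adjusted p = 0.0296), which is not among the 5, and all 5 lost their call (PSAT1 0.0901, MTHFD1L 0.119, MTHFD1 0.219, PSPH 0.335 and PHGDH 0.368). With MOLM-14 fitted alone MTHFD1L (0.0627), MTHFD1 (0.0863) and SHMT1 (0.287) lost theirs. A filter of 50 gave 1 member higher in KG-1 (SHMT1). Library weights and leaving out the shallow libraries gave 20 and 21 calls of 1 line against the others, against 13, and 5 calls each between MOLM-13 and MOLM-14, against 3. The cause was not tested. With the replicate number as a block 7 members were lower on the panel and 1 in KG-1 (MTHFD1L, -0.33; limma, BH-adjusted p = 0.0198), against 0; the numbers were not taken to pair libraries, since their deviations correlated above 0.1 in 6 of 15 pairs (-0.02 to 0.15), and 12 of 15 correlated best with their own number, a hint from the data. Of 3240 values of single members without 1 library, 61 lost and 33 gained a call; of 1080 under the other settings, 26 lost and 71 gained one; no called value changed sign, while some uncalled ones did, such as ALDH1L2 in KG-1 (-0.33 without the shallow libraries, against 1.81). Over all tested genes the calls moved more: on the panel 353 to 3440 were lower (1667 in the fit reported) and 778 to 5107 higher (2666), in MOLM-13 102 to 2590 lower (371) and 182 to 3061 higher (322), in SKM-1 524 to 3254 lower (735) and 1075 to 5029 higher (1264), in MOLM-14 161 to 1348 lower (1058) and 167 to 1748 higher (1387), in OCI-AML3 4 to 765 lower (363) and 50 to 1399 higher (828), and in KG-1 12 to 266 lower (147) and 97 to 998 higher (691). The share of calls that were higher in MOLM-13 was 46.5%, against 64.1% after quantile normalization and 67.6% with scaling without mitochondrial genes; in SKM-1 it was 63.2%, against 73.7% when scaled without mitochondrial genes. Quantile normalization moved the median of all genes in SKM-1 to -0.08, against 0.08. In the KG-1 DMSO library that lists ALDH1L2 at 0, depth allows a value of up to 19.9 (3 reads, counting error only).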

Other observations

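The share of a library's value that came from mitochondrial genes was higher after decitabine on average in all 5 lines. It was 18.7% ± 0.45 after decitabine and 13.5% ± 0.88 in DMSO in MOLM-13, 12.4% ± 2.89 after decitabine and 9.61% ± 1.23 in DMSO in OCI-AML3, and 16.9% ± 1.36 after decitabine and 14.5% ± 0.74 in DMSO in SKM-1 (SD, n = 3 each). Scaling to the total without these genes left 7 members called lower on the panel mean.

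TRIB3, a target and inhibitor of ATF4 that was looked up after its values were seen, showed the widest split between KG-1 and MOLM-14 among the genes named here from that list: 0.87 in KG-1 and -2.40 in MOLM-14 (limma, BH-adjusted p = 0.00014 and 9.66e-12), and its 5 responses were not equal (limma F-test, BH-adjusted p = 8.7e-10).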
